A study of Mus musculus with 12 samples.

Results

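The replication-dependent histone genes encode the core histones H2A, H2B, H3 and H4 and the linker histone H1 that cells make in bulk when they copy their DNA. They were taken here as the protein-coding genes whose symbols start with H2ac, H2bc, H3c or H4c and a number, or are H1f1 to H1f5, with at least 120 counts summed over the 12 libraries. Of 43322 genes in the table, 66 had such a symbol and 50 reached that total. They were 5 H1 genes, 7 H2A genes, 18 H2B genes, 10 H3 genes and 10 H4 genes. All 50 were among the 17077 genes with enough counts to be tested. The members just inside the limit were H3c2 with 123.82 counts, H2ac21 with 131.6 and H3c10 with 133.67, and the genes just outside it were H4c6 with 107.9 and H3c7 with 103.68.

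The cells were cortical glial cultures from wild-type CD1 mice of postnatal days 3 to 5, grown with epidermal growth factor, which the labels call primary astrocytes. The 3 groups had 4 libraries each. Cells of the first were given 3 µM thapsigargin for 60 min, an inhibitor of the SERCA pumps that load calcium into the endoplasmic reticulum. Cells of the second spent 60 min in medium without calcium, with the chelator EGTA, and control cells received vehicle. All groups share strain, genotype, age and culture, and the series text calls the 4 samples of a group biological replicates without saying which animals they came from or whether the 4 were separate cultures, so p-values measure the spread between these samples. The libraries were made from RNA caught by its poly-A tail.

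Library totals ran from 36191500 to 42569100 counts, and the 50 histone genes together took 141 to 385 CPM (counts per 1000000 counts of the normalised library size). All 12 astrocyte markers checked were measured, with median levels over libraries from 12.5 CPM for S100b to 2608 CPM for Slc1a3. Genes listed for other cells were measured as well, with medians of 1246 CPM for Olig1 and 199 CPM for Cnp of the oligodendrocyte lineage, 574 CPM for Col1a1 of fibroblasts and 218 CPM for Map2 of neurons. Other defining markers were at or near 0 CPM, among them Mog and Sox10 of oligodendrocytes, Cldn5 of endothelium and Rbfox3 of neurons. Medians were also low for Dcn (0.766 CPM) and Lum (0.167 CPM) of fibroblasts. So were those of Snap25 (0.455 CPM), Slc17a7 (0.152 CPM) and Nefl (0.976 CPM) of neurons. Replicate 4 of every group stood apart. Its 3 libraries had Xist, which silences an X chromosome, at 588 to 740 CPM, and the other 9 at 0.0832 to 0.319 CPM. They also had more of 16 cell division genes, summed to 2904 to 3014 CPM against 2232 to 2465 CPM, and of 46 DNA replication genes, with sums of 4113 to 4413 CPM against 3220 to 3622 CPM. Their summed markers of vessels and fibroblasts were lower, at 371 to 563 CPM against 1167 to 1527 CPM. Col1a1 and Col1a2 held most of that sum. The median of the list overlapped, at 2.04 to 3.49 CPM against 3.30 to 4.85 CPM. Summed microglia markers were lower too, at 144 to 173 CPM against 195 to 268 CPM. Summed markers of the oligodendrocyte lineage were higher, at 1910 to 2091 CPM against 1641 to 1843 CPM. The part of these cells in the histone level of replicate 4 was not tested. Results are therefore given with and without replicate 4 where it matters.

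Most messenger RNAs end in a poly-A tail, but those of the replication-dependent histones end just behind a short stem-loop, which the protein SLBP binds and which governs their processing, translation and decay. They are made mainly in S phase, under the control of NPAT, and are degraded fast when DNA synthesis stops. A minority of their transcripts is polyadenylated, mainly in cells that leave the cycle. Which form these poly-A libraries read was not tested.

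The stem-loop was looked up in the transcripts of these genes (GENCODE M21, GRCm38). It was searched as GG, any 4 bases, TT, any 6 bases and CC, with the first 6 of these 16 bases pairing with the last 6, on the transcript strand within 100 bases of the stop codon. It was found in 33 of the 50 members, 21 to 58 bases behind the stop codon with a median of 30. Of 21901 protein-coding genes, 53 (0.242%) held such letters. The 17 members with no match included 10 whose annotated transcript ended fewer than 40 bases after the stop codon and 7 with a longer end, H1f1, H2bc4, H2bc21, H2bc23, H2bc24, H3c8 and H4c1. In 17 members the annotated transcript ran on for more than 100 bases past the stem-loop. The 26 bases around it are shown for genes described below, one or more from each class, with the stem-loop in capitals. The letters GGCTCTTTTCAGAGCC were found in 20 members.
H1f2: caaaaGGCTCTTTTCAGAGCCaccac
H1f3: caaacGGCTCTTTTCAGAGCCaccca
H2ac7: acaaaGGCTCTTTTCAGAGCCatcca
H2bc8: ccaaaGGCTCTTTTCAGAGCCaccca
H3c4: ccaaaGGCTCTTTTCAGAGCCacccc
H4c18: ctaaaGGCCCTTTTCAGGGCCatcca
H4c11: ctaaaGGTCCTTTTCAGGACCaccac

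Promoters of 250 bases before to 50 after the start were given by RefSeq (GRCm38.p6) for 48 of the 50 members, 49 promoters in all. The letters of the TATA box, searched as TATAAA on both strands, were in 57.1% of them and in 13.6% of all 32851 promoters of that length. For these and the letters below any position counted, so a match need not be a working element. In H2ac18, for one, TATAAA lay at base 12 behind the start. The CCAAT box, searched as CCAAT on both strands, was in 85.7% against 37.4%. It was in every H1, H2A, H2B and H3 promoter and in 3 of 10 H4 promoters. The octamer ATTTGCAT, known from H2B promoters, was in 7 of 17 H2B promoters, 3 of 7 H2A promoters and 1.74% of all promoters. The 150 bases before the start follow for 4 genes with differences between groups, with these letters in capitals on either strand.
H1f3, chr13:23554882-23555031, GRCm38.p6, + strand: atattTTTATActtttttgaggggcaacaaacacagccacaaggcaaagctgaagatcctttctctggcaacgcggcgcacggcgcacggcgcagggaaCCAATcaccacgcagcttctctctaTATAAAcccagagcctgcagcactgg
H2bc18, chr3:96269550-96269699, GRCm38.p6, + strand: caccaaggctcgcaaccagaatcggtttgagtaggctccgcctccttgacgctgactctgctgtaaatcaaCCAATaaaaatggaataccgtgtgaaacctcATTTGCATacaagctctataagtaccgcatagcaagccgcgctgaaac
H2bc23, chr13:21810200-21810349, GRCm38.p6, − strand: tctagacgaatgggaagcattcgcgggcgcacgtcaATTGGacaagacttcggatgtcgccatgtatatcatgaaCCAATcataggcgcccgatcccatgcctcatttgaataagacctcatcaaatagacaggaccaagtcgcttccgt
H4c17, chr13:21811596-21811745, GRCm38.p6, + strand: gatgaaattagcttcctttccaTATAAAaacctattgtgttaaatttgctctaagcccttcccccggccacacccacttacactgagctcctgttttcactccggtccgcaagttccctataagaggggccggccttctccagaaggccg

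The genes lie in clusters, 39 on chromosome 13, 9 on chromosome 3 and 2 on chromosome 11 (GRCm39). Many are close copies, and the deposited counts reflect that. In 36 of the 50 members the counts were not whole in any library, as when reads are divided among genes. H2bc21 alone was whole in all 12 libraries, and H2bc18 was whole in all but 1. H2bc23 and H2bc24 differed by at most 0.254% in any library and their 300-base promoters had 0 mismatches. H4c17 and H4c18 differed by at most 5.24%, and H2ac18 and H2ac19 by at most 6.65%. Values of such pairs are not independent, and how their reads split is uncertain. H2ac25 overlaps Trim17 on the same strand, and H2bc1, H2bc6 and H2bc27 overlap a long noncoding gene on the other, so these 4 are uncertain too, since the strand setting of the counting is not given in the sources used here.

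Levels per gene length differed widely. In control cells the median member was at 2.64 CPM per kb of exons, with a range from 0.302 for H3c6 to 115 CPM per kb for H1f2, a linker histone. H1f2 took 25.9% to 43.7% of all counts of the members in a library. It was followed in control cells by H2bc4 at 20.2 CPM per kb, H2ac25 at 11.8, H2ac18 at 11.6, H4c9 at 11.6 and H2ac19 at 11.3. In CPM, 21 members were under 1, 24 were from 1 to 10 and 5 were above 10 in control cells, so the lower ones rest on few reads.

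Summed over all 50 members, the level was 242, 230, 252 and 385 CPM in replicates 1 to 4 with thapsigargin, 168, 156, 141 and 266 CPM in calcium-free medium, and 244, 219, 226 and 350 CPM in control cells. Paired by number, each of the 4 calcium-free sums was below its control, and the mean was 0.702 times the control mean. No pairing beyond replicate 4 was seen, though a weak one could be missed, so the other pairs are matched by label only. With thapsigargin the mean was 1.07 times that of control. Among classes, the calcium-free mean was 0.623 times the control mean for H4, 0.662 for H2B, 0.708 for H1, 0.770 for H3 and 0.897 for H2A, each lower in all 4 pairs. H1f2 made up 83.6 of the 95.8 CPM of the mean H1 sum in control cells, and H2ac18, H2ac19 and H2ac25 held most of the H2A sum. Per gene the order differed, with a median log2 fold change of -1.02 for H1, -0.67 for H4, -0.51 for H2B and H3 and -0.08 for H2A. A class sum is less open to how reads were split among its members, but reads divided with the 16 genes under the count limit can still move it. In bulk RNA, fewer cells in S phase and less histone RNA per cell cannot be told apart. The libraries were made from poly-A RNA, so a change in these sums need not be one in all histone RNA.

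**Figure D1:**
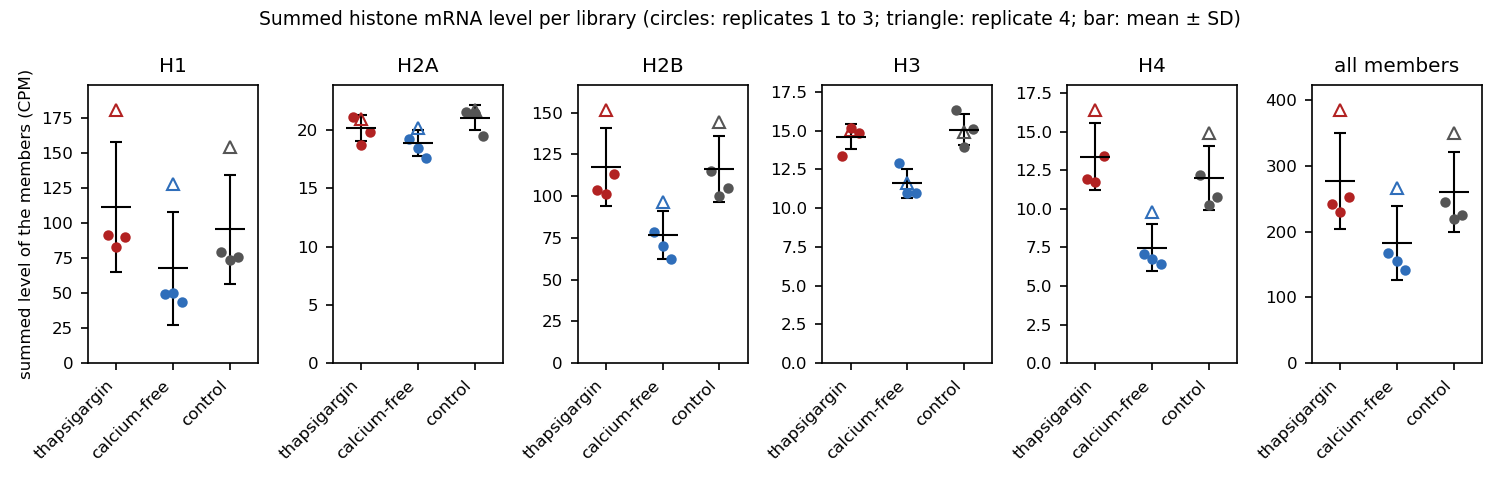
Summed level of the histone genes in CPM (y axis, from 0) for each class and for all 50 members in the 12 libraries, by group on the x axis, with circles for replicates 1 to 3, a triangle for replicate 4 and bars for mean ± SD. H4 sums were 6.40 to 9.76 CPM in calcium-free medium and 10.2 to 14.9 CPM in control, and the H1 sum of replicate 4 lies above the others in every group.

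Histone transcripts, as read in these poly-A libraries, were lower in calcium-free medium than in control cells. In all, 11 of 50 members fell at an adjusted p under 0.05 in edgeR's quasi-likelihood test with Benjamini-Hochberg adjustment over all 17077 genes, and 0 rose. Over all genes tested, 1.55% were called lower and 3.78% higher. The log2 fold change was negative for 49 of the 50, with a median of -0.53, whereas the median of all genes tested was -0.01. In 19 members every calcium-free library lay below every control library, which held for 4.43% of all genes, and in 0 members did every one lie above, against 6.04% of all genes. The genes that fell were the H2A gene H2ac7, the H2B genes H2bc4, H2bc7, H2bc8, H2bc18, H2bc23 and H2bc24, the H3 genes H3c4 and H3c11 and the H4 genes H4c17 and H4c18. Members from each core class were thus among them, while 0 of 5 H1 genes passed.

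H2bc18 encodes an H2B at the end of the chromosome 3 cluster (96177016 to 96177508, GRCm39). It had 0.777, 0.465, 0.374 and 0.698 CPM in calcium-free medium, against 1.89, 1.41, 1.50 and 1.57 CPM in control cells. Its highest calcium-free library stood below its lowest control library. Its log2 fold change was -1.46 ± 0.20 (SE, n = 4 per group, edgeR adjusted p = 0.00174), or 0.364 times the control level. Because its counts were whole in nearly all libraries, they do not show divided reads. Its neighbour H3c13, an H3 gene, had 1.27, 1.14, 1.07 and 1.38 CPM in calcium-free medium against 1.74, 1.54, 1.63 and 1.34 CPM in control cells, with a log2 fold change of -0.36 ± 0.13 that missed the threshold (edgeR adjusted p = 0.159).

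H2ac7, an H2A gene of the chromosome 13 cluster (23758555 to 23759089), had 0.248, 0.199, 0.118 and 0.300 CPM in calcium-free medium and 0.803, 0.588, 0.615 and 0.594 CPM in control cells. The groups did not overlap, and the log2 fold change was -1.59 ± 0.25 (SE, edgeR adjusted p = 0.00408), the most negative of the members. H2bc7 is an H2B gene next to it. It was at 0.717, 0.580, 0.569 and 0.769 CPM in calcium-free medium and 1.04, 0.884, 0.965 and 1.03 CPM in control cells. Here too the groups were apart, with a smaller log2 fold change of -0.57 ± 0.14 (edgeR adjusted p = 0.0398).

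H3c4, an H3 gene on the other side of H2ac7 (23759937 to 23760440), was at 0.584, 0.445, 0.393 and 0.301 CPM in calcium-free medium and 1.15, 0.901, 0.993 and 0.945 CPM in control cells. All calcium-free libraries were lower, and the log2 fold change was -1.22 ± 0.20 (edgeR adjusted p = 0.0051). H3c11, in the other part of the chromosome 13 cluster, was at 0.179, 0.210, 0.190 and 0.298 CPM in calcium-free medium, against 0.388, 0.393, 0.396 and 0.625 CPM in control cells. The groups did not overlap, with replicate 4 highest in both, and the log2 fold change was -1.09 ± 0.23 (edgeR adjusted p = 0.02).

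H4c17 and H4c18, H4 genes that share most of their counts, lie between H2bc23 and H2bc24, H2B genes that do so as well. H4c17 was at 0.674, 0.479, 0.367 and 0.743 CPM in calcium-free medium and 1.20, 1.19, 1.06 and 1.34 CPM in control cells, with a log2 fold change of -1.06 ± 0.19 (edgeR adjusted p = 0.00823). H4c18 fell by 1.05 on the log2 scale. H2bc23 was at 6.21, 3.67, 2.98 and 7.99 CPM in calcium-free medium, against 12.9, 10.6, 11.1 and 21.5 CPM in control cells, with a log2 fold change of -1.43 ± 0.34 (edgeR adjusted p = 0.0318), and H2bc24 had the same log2 fold change. Every calcium-free library of these 4 genes lay below every control library.

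H2bc8 and H2bc4 are further H2B genes of chromosome 13 that fell. H2bc8 was at 3.16, 2.87, 2.45 and 3.40 CPM in calcium-free medium and 4.93, 4.15, 4.98 and 4.40 CPM in control cells, with a log2 fold change of -0.63 ± 0.11 (edgeR adjusted p = 0.00708). H2bc4 was at 36.1, 34.6, 31.9 and 39.8 CPM in calcium-free medium and 49.3, 44.0, 43.5 and 49.3 CPM in control cells, with a log2 fold change of -0.38 ± 0.09 (edgeR adjusted p = 0.0242). Neither overlapped between groups. Of the 11 calls, 6 (H2ac7, H2bc8, H2bc18, H3c4, H4c17 and H4c18) held when any 1 of the 12 libraries was left out, and 5 (H2bc4, H2bc7, H2bc23, H2bc24 and H3c11) were lost without at least 1 of them, with an adjusted p of up to 0.157 for H2bc7. Controls 1 and 4 and calcium-free replicates 2 and 3 were those that lowered the count to between 6 and 7.

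**Figure D2:**
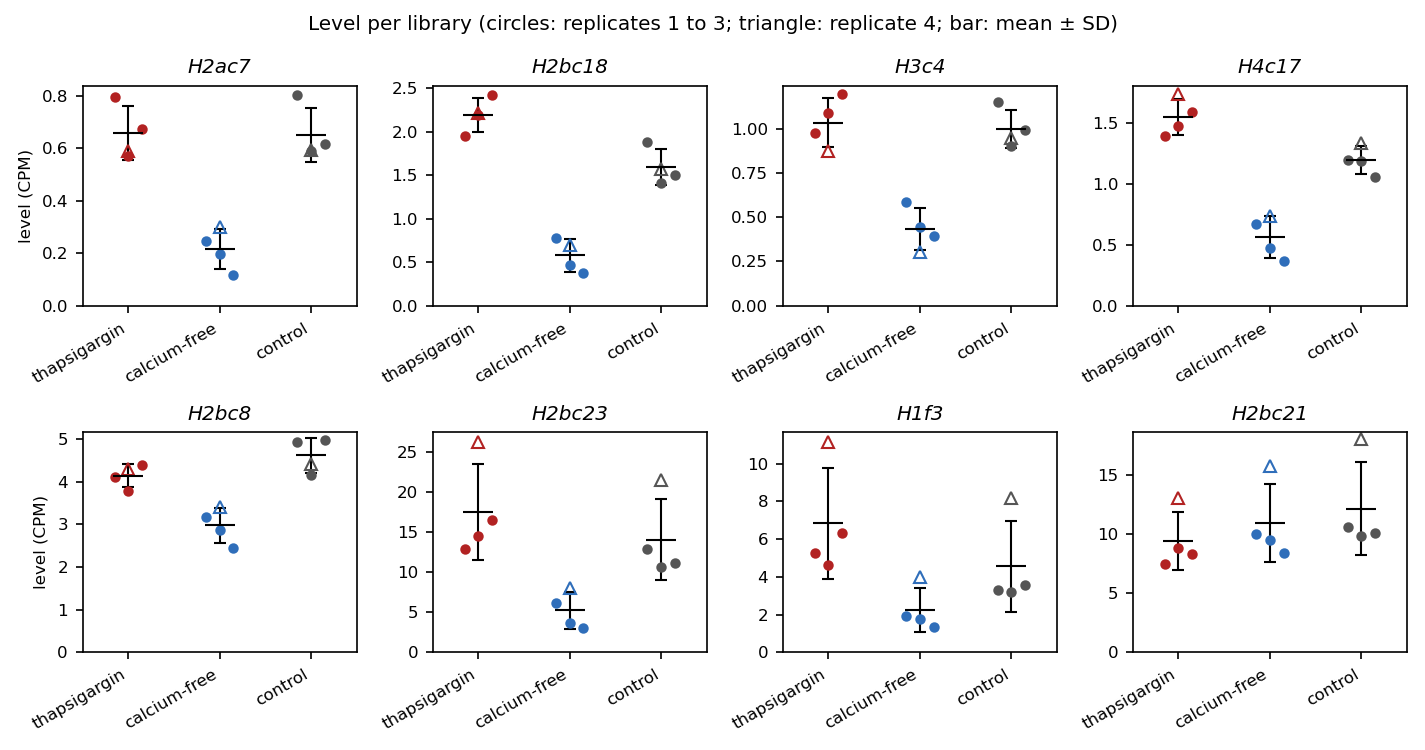
Level in CPM (y axis, from 0) of 8 histone genes in each library, by group on the x axis, with circles for replicates 1 to 3, a triangle for replicate 4 and bars for mean ± SD. H2ac7, H2bc18, H3c4, H4c17, H2bc8 and H2bc23 lie lower in all calcium-free libraries than in all control libraries, whereas H1f3 overlaps through replicate 4 and H2bc21 overlaps throughout.

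The H1 genes had low values in calcium-free medium but a wide spread. H1f3 was at 1.90, 1.75, 1.33 and 3.97 CPM in calcium-free medium, against 3.31, 3.17, 3.57 and 8.18 CPM in control cells. Replicate 4 of the calcium-free group exceeded replicates 1 to 3 of control, so the groups overlapped, and the log2 fold change of -1.02 ± 0.42 missed the threshold (edgeR adjusted p = 0.219). H1f2 was at 43.4, 44.8, 39.6 and 116 CPM in calcium-free medium and 69.7, 65.4, 66.2 and 133 CPM in control cells, with a log2 fold change of -0.45 ± 0.38 (edgeR adjusted p = 0.660). In both genes the calcium-free library was lower than the control of its own number in all 4 pairs, as it was in H1f1, H1f4 and H1f5. For replicates 1 to 3 these pairs are matched by label only. In control cells the level of the H1 genes in replicate 4 was 1.98 to 3.19 times the mean of replicates 1 to 3, with a median of 2.21, while the median ratio was 0.905 for H2A genes.

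Among replicates 1 to 3, libraries of different groups with the same number were no more alike than those with different numbers, so the pairs by number mainly set replicate 4 against the rest. The check used group means that include replicate 4 and could miss a weak pairing. With the replicate number as a block, 29 members fell and 0 rose in calcium-free medium, where 7.01% of all genes fell and 10.4% rose. All 5 H1 genes fell in that fit, H1f2 by 0.52 (edgeR adjusted p = 0.0101), H1f3 by 1.02 (adjusted p = 1.4e-05), H1f4 by 0.62, H1f1 by 1.20 and H1f5 by 1.16 on the log2 scale. So did 13 of 18 H2B genes, 6 of 10 H4 genes, 3 of 10 H3 genes and 2 of 7 H2A genes. Without replicate 4, 27 members fell, against 5.16% of all genes called lower. These were 5 of 5 H1 genes, 12 of 18 H2B genes, 5 of 10 H4 genes, 4 of 10 H3 genes and 1 of 7 H2A genes. Without it H1f3 had a log2 fold change of -1.01 and H1f2 of -0.65. That fit rests on replicates 1 to 3, which the sources do not say were separate cultures.

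**Figure D3:**
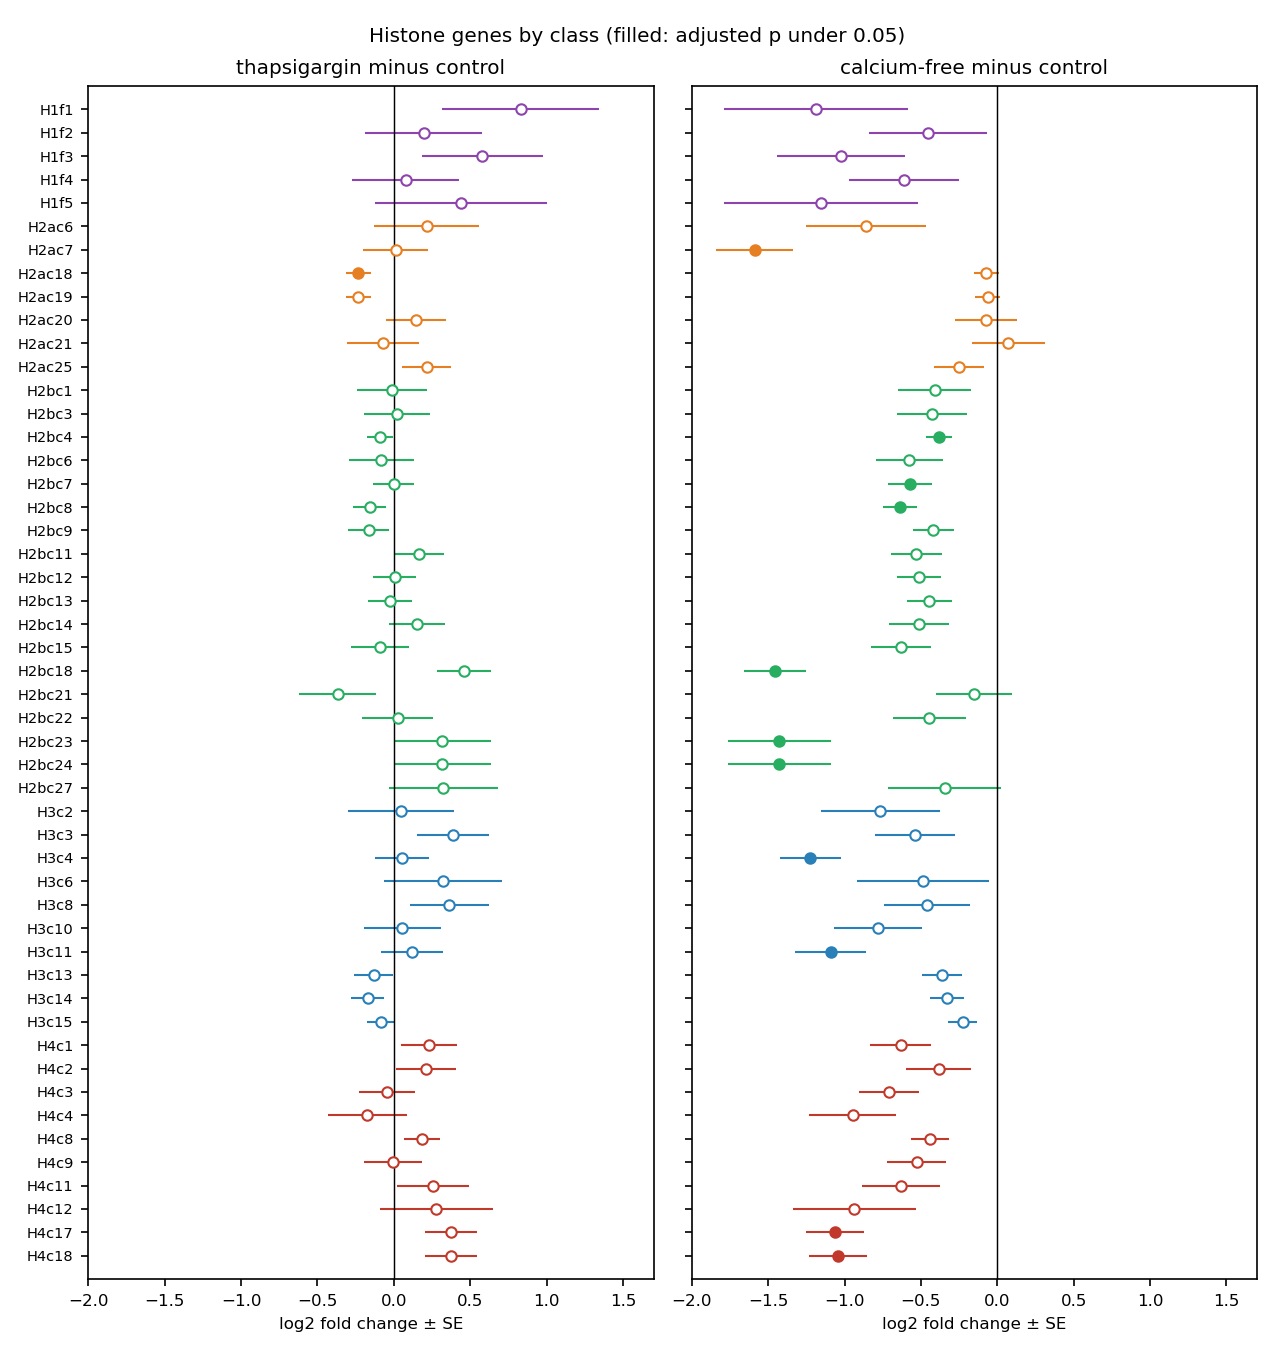
Log2 fold change ± SE (x axis) of the 50 histone genes (y axis, by class) for thapsigargin minus control on the left and calcium-free minus control on the right, with filled points at an adjusted p under 0.05. In calcium-free medium 49 of 50 points lie below 0 and 11 are filled, while with thapsigargin the points lie on both sides and 1 is filled.

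The difference in calcium-free medium was also read along the genome. On chromosome 13 the median log2 fold change of the 39 members was -0.63, all 39 were negative, and 10 fell. On chromosome 3, 1 of 9 members fell and the median was -0.15. That 1 was H2bc18. The other 8 lay between -0.36 and 0.07, among them the H2A genes H2ac18 at -0.07 ± 0.08 and H2ac19 at -0.06 ± 0.08, and H2bc21 at -0.15 ± 0.25. H2ac18 was at 6.79, 6.40, 6.28 and 6.39 CPM in calcium-free medium and 7.02, 7.37, 6.39 and 6.36 CPM in control cells. Its groups overlapped. The 2 members on chromosome 11, H2ac25 and H2bc27, were at -0.25 ± 0.16 and -0.35 ± 0.37. No test compared the clusters. They also differ in class, since chromosome 3 held no H1 or H4 member, and position was not separated from class.

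**Figure D4:**
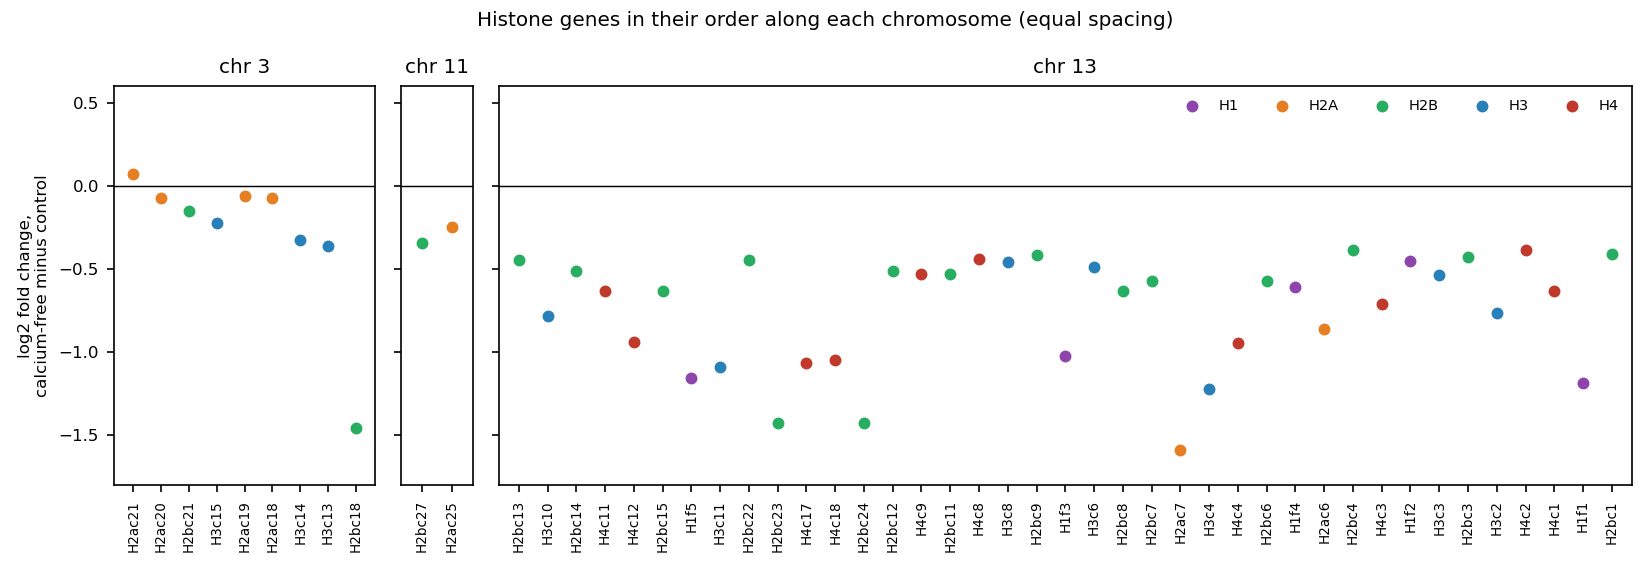
Log2 fold change in calcium-free medium minus control (y axis) of the 50 histone genes in their order along chromosomes 3, 11 and 13 (x axis, equal spacing), coloured by class. H2bc18, at one end of the chromosome 3 cluster, is at -1.46, and the other 8 genes of that cluster lie between -0.36 and 0.07.

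The members were also divided by these sequence letters. The 33 with the stem-loop letters behind the stop codon had a median log2 fold change of -0.53 in calcium-free medium, and 6 fell. The 17 without had a median of -0.63, and 5 fell. Of these 17, 10 have an annotated transcript that ends fewer than 40 bases after the stop codon. The annotation may stop short of a stem-loop there, so the split partly sorts genes by their annotation. Among the 33, those whose annotated transcript ran on for more than 100 bases had a median of -0.57 and the others -0.51. H2B genes with the octamer in the promoter had a median of -0.51, and those with a promoter but no octamer -0.53. These medians describe small sets and were not tested.

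With thapsigargin few histone genes differed from control cells. Of 50 members 0 rose and 1 fell in the same edgeR test, where 16.4% of all genes tested rose and 14.8% fell. At an unadjusted p under 0.05, 3 members differed, and DESeq2 called 1 higher. The median log2 fold change was 0.07, against -0.05 for all genes tested, and no member reached a 2-fold difference. H2ac18, the gene that fell, was at 6.40, 5.42, 6.01 and 5.31 CPM with thapsigargin and 7.02, 7.37, 6.39 and 6.36 CPM in control cells. The groups overlapped through 1 thapsigargin library, and the log2 fold change was -0.23 ± 0.08 (edgeR adjusted p = 0.0455). The call was lost without any 1 of 10 of the 12 libraries, with an adjusted p of up to 0.137. Its near copy H2ac19 was also at -0.23 ± 0.08 (adjusted p = 0.0543).

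In 3 members, H2bc18, H4c17 and H4c18, every thapsigargin library lay above every control library, which held for 16.7% of all genes, and in 0 members did every one lie below, against 15.1%. H2bc18 was at 1.95, 2.19, 2.42 and 2.21 CPM with thapsigargin, against 1.89, 1.41, 1.50 and 1.57 CPM in control cells, with a log2 fold change of 0.46 ± 0.18 (edgeR adjusted p = 0.0708). H4c17 was at 1.40, 1.48, 1.59 and 1.74 CPM with thapsigargin and 1.20, 1.19, 1.06 and 1.34 CPM in control cells, at 0.37 ± 0.17 (adjusted p = 0.127). Both differences missed the threshold. The 5 H1 genes were all on the positive side, between 0.08 for H1f4 and 0.83 for H1f1, and each was higher than the control of its number in all 4 pairs. With the block 6 members rose (H1f1, H1f3, H2ac25, H2bc18, H4c17 and H4c18) and 3 fell (H2ac18, H2ac19 and H2bc21), against 23% and 28.2% of all genes. H2bc21, an H2B gene of the chromosome 3 cluster, was at 7.49, 8.84, 8.33 and 13.03 CPM with thapsigargin, against 10.6, 9.88, 10.1 and 18.1 CPM in control cells, and fell by 0.36 on the log2 scale in that fit (edgeR adjusted p = 0.000221). Without replicate 4, 6 members rose and 1 fell, against 24.4% and 21.2% of all genes.

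The 2 treatments were compared directly, which shares the calcium-free and thapsigargin libraries with the contrasts above. With thapsigargin, 26 members were higher than in calcium-free medium and 0 were lower, while 14.6% of all genes were higher and 13.2% lower. The median log2 difference was 0.66, against -0.02 for all genes tested, and in 24 members the groups did not overlap, as in 14.9% of all genes. The 26 were 2 H1 genes (H1f1 and H1f3), 2 H2A genes (H2ac7 and H2ac25), 9 H2B genes (H2bc4, H2bc7, H2bc8, H2bc11, H2bc12, H2bc13, H2bc18, H2bc23 and H2bc24), 5 H3 genes (H3c3, H3c4, H3c8, H3c10 and H3c11) and 8 H4 genes (H4c1, H4c2, H4c3, H4c8, H4c11, H4c12, H4c17 and H4c18).

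H1f1, a linker histone gene, had 1.21, 0.889, 0.957 and 2.58 CPM with thapsigargin, against 0.250, 0.297, 0.0534 and 0.746 CPM in calcium-free medium. Even the lowest thapsigargin library was above the highest calcium-free one, and the log2 difference was 2.02 ± 0.57 (SE, edgeR adjusted p = 0.0203). The calcium-free values rest on 2 to 31 counts per library. The call was lost without thapsigargin replicate 4 or calcium-free replicate 1 or 2, with an adjusted p of up to 0.0575, and the log2 difference ran from 1.55 to 2.78 with 1 library left out. H2bc18 differed by 1.92 ± 0.20 (adjusted p = 4.19e-05), between 1.76 and 2.08 with 1 library left out, and H1f3 by 1.602 ± 0.42 (adjusted p = 0.0127). H4c8, an H4 gene that missed the threshold against control, was at 1.27, 1.28, 1.05 and 1.12 CPM with thapsigargin and 0.804, 0.743, 0.687 and 0.789 CPM in calcium-free medium, a log2 difference of 0.63 ± 0.12 (adjusted p = 0.00258). The smallest difference called was that of H2bc4, at 0.29 ± 0.09 (adjusted p = 0.0222). Leaving out any 1 library kept 14 of the 26 calls, and the count ranged from 16 to 35. It was 17 without thapsigargin replicate 4 and 16 without calcium-free replicate 2 or 3. With the block 38 members were higher and 1, H2bc21, was lower, against 22.4% and 26.9% of all genes, and without replicate 4 in any group 35 were higher, against 21.7% of all genes.

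Other histone genes and the factors that act on histone RNA were read from lists. Over all genes tested, 3.78% were called higher and 1.55% lower in calcium-free medium, and 16.4% and 14.8% with thapsigargin, and the counts of the lists are to be read against these shares. At the calcium-free shares a short list would hold few or no calls. Most replication-independent histones are made throughout the cycle from ordinary polyadenylated transcripts. The list of them gave 0 calls among 11 tested in calcium-free medium, with a median log2 fold change of -0.06. H3f3b, an H3.3 gene, was at 504 CPM in calcium-free medium and 580 CPM in control (-0.20 ± 0.15), H3f3a at 172 and 186 CPM (-0.11 ± 0.07), H2az1 at 244 and 254 CPM (-0.05 ± 0.12) and H2ax at 71.3 and 81.2 CPM (-0.19 ± 0.17). With the replicate block, 3 of the 11 fell in calcium-free medium, H3f3b by 0.21 (edgeR adjusted p = 0.000154), H2ax by 0.20 (adjusted p = 0.000985) and H1f0, where 7.01% of all genes fell. With thapsigargin 2 of the 11 fell, H2az2 by 0.19 (edgeR adjusted p = 0.003) and H3f3a by 0.25 (adjusted p = 0.0219), and 0 rose. The call of H3f3a was lost without control replicate 1 or thapsigargin replicate 2 or 3.

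Of 27 tested genes for histone gene transcription and the 3′ end processing of histone RNA, 0 were called in either direction in calcium-free medium, and the median was -0.01. Slbp, which binds the stem-loop, was at 54.5 CPM there and 56.6 CPM in control (-0.06 ± 0.10). Npat, the coactivator of histone genes, was at 35.0 and 31.1 CPM (0.17 ± 0.05, edgeR adjusted p = 0.0612). Zfp473, a zinc finger protein of the U7 processing machinery, was at 0.635 and 0.916 CPM (-0.53 ± 0.22, adjusted p = 0.227), and Lsm10, a U7 subunit, at 10.6 and 11.4 CPM (-0.11 ± 0.07). With the block 2 rose, Npat by 0.17 (edgeR adjusted p = 0.00632) and Casp8ap2 by 0.29 (adjusted p = 0.00133), and 2 fell, Cpsf1 and E2f4. Over all genes 10.4% rose and 7.01% fell in that fit. With thapsigargin 7 of the 27 rose and 3 fell. Npat rose by 0.36 ± 0.05 (adjusted p = 0.000129), Casp8ap2, a partner of NPAT in histone gene bodies of the nucleus, by 0.72 ± 0.13, Hinfp, which binds H4 promoters, by 0.70 ± 0.09, Lsm11, a U7 subunit, by 0.36 ± 0.08, and Cstf3, a cleavage factor, by 0.35 ± 0.04.

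Among 24 genes for the decay of histone RNA, 2 rose in calcium-free medium, Smg5 by 0.28 ± 0.07 (edgeR adjusted p = 0.0426), a gene of nonsense-mediated decay, and Dcp1a, a decapping factor, by 0.34, and 0 fell. The calls of Smg5 and of E2f7, a gene of S phase entry, did not hold when each library was left out in turn. With the block 6 rose and 1 fell, where 10.4% of all genes rose and 7.01% fell. Eri1, the exonuclease that trims histone ends, was at 69.9 CPM in both groups. With thapsigargin 6 of the 24 rose, among them Smg5 by 0.60 ± 0.07 and Tut7, a uridylating enzyme, by 0.30 ± 0.05, and 3 fell, among them Lsm3 by 0.45 ± 0.07. Of 25 histone chaperones and assembly factors, 0 were called in calcium-free medium with or without the block, and with thapsigargin 3 rose, Daxx by 0.47 ± 0.07, Hjurp by 0.49 ± 0.10 and Ubn1 by 0.32 ± 0.08, and 2 fell, Rbbp7 and Nap1l4.

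Genes of DNA replication and the cell cycle were also read, since the histone genes are tied to S phase. Of 46 DNA replication genes 0 were called in calcium-free medium, with a median log2 fold change of 0.00106 and a range from -0.12 to 0.10. Of 16 cell division genes 0 were called, with a median of 0.05, and Ccnb1, a mitotic cyclin, was at 125 CPM in both groups. Of 24 genes of S phase entry 2 rose, E2f7, a repressor of E2F targets, by 0.52 ± 0.13 (edgeR adjusted p = 0.0356) and E2f3, and 0 fell. Ccne2, a cyclin of S phase entry, was at 25.5 CPM in calcium-free medium and 28.3 CPM in control (-0.15 ± 0.11). With the block 1 DNA replication gene rose and 2 fell, 3 cell division genes rose, among them Kif11 by 0.25 (adjusted p = 0.000161), and 1 fell, and 4 S phase entry genes rose and 5 fell, among them Ccne2 by 0.15 (adjusted p = 0.0191), beside 10.4% of all genes higher and 7.01% lower.

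With thapsigargin 1 of the 46 DNA replication genes rose, Gins3 by 0.68 ± 0.06, and 4 fell, Rrm2 by 0.48 ± 0.05, Rpa3 by 0.48 ± 0.08, Tk1 and Dut. Of the S phase entry genes 6 rose and 4 fell, with Ccne2 at -1.05 ± 0.12 (edgeR adjusted p = 2.94e-05), E2f7 at 1.03 ± 0.13 and Fbxo5 at 0.86 ± 0.11. Of the 16 cell division genes 3 rose, Cenpe by 0.37 ± 0.11, Kif11 by 0.33 ± 0.09 and Aurka, and 1 fell, Ccnb1 by 0.31 ± 0.08. The call of Cenpe was lost without control replicate 1, 2 or 3 and that of Kif11 without control replicate 2 or 3. Between the treatments, with thapsigargin over calcium-free medium, 14.6% of all genes tested were higher and 13.2% lower. Of 27 genes of histone transcription and processing 6 were higher and 1 lower, and of 24 decay genes 5 and 2. Of 11 replication-independent histones 0 were higher and 1 lower, and of 25 chaperones 3 and 2. Of 46 DNA replication genes 1 was higher and 2 lower. Of 24 S phase entry genes 4 were higher and 5 lower, and of 16 cell division genes 1 and 1.

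**Figure D5:**
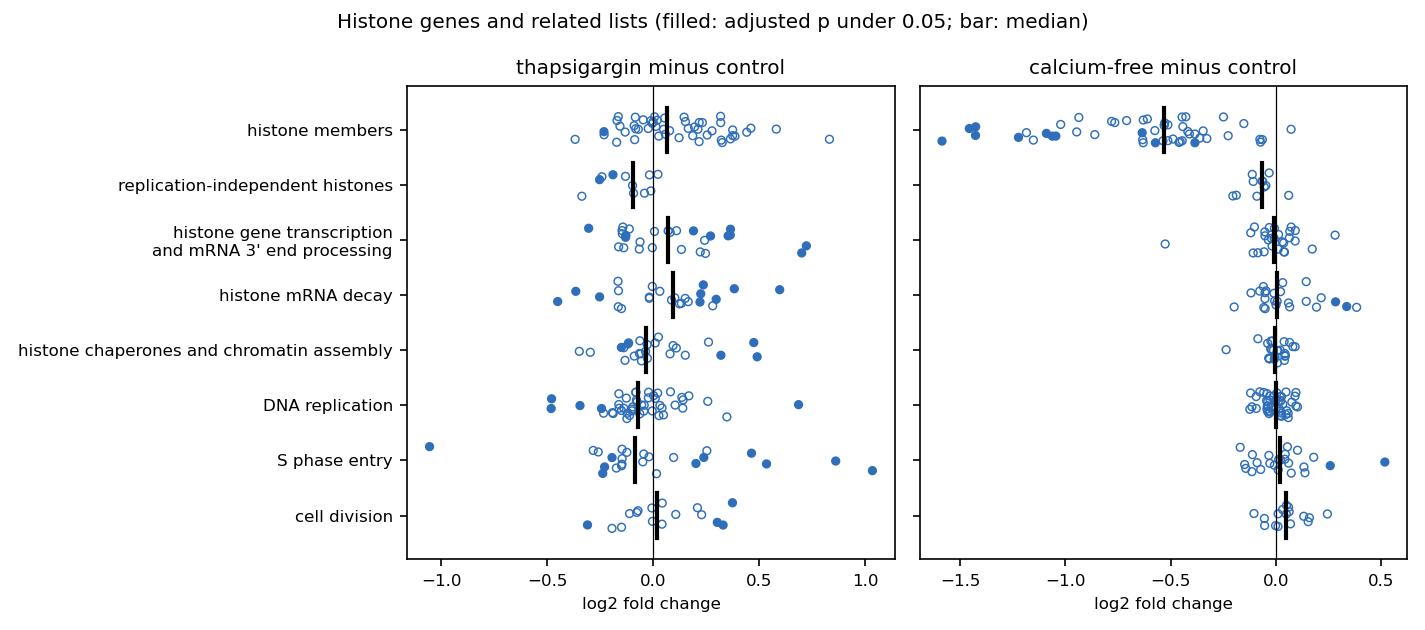
Log2 fold change (x axis) of each tested gene in the histone members and 7 related lists (y axis), for thapsigargin minus control on the left and calcium-free minus control on the right, with filled points at an adjusted p under 0.05 and a bar at the median. In calcium-free medium the histone members have a median of -0.53 and the medians of the 7 lists lie between -0.06 and 0.05.

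Markers of other cells were read beside these results. In calcium-free medium 0 of 14 microglia markers, 0 of 9 neuron markers, 0 of 8 markers of vessels and fibroblasts and 0 of 12 astrocyte markers were called, and 1 of 7 markers of the oligodendrocyte lineage, Olig2, rose. Over all genes tested 3.78% were called higher and 1.55% lower there. With the block 5 of 14 microglia markers fell, Cx3cr1, C1qa, C1qb, C1qc and Tyrobp, where 7.01% of all genes fell. The summed microglia level was 167 to 239 CPM in calcium-free medium and 173 to 268 CPM in control cells. With thapsigargin 3 of 14 microglia markers fell (P2ry12, Tyrobp and Cd68), and the summed microglia level was 144 to 204 CPM. Over all genes tested 16.4% rose and 14.8% fell with thapsigargin. The astrocyte markers Slc1a3, Gja1 and Fgfr3 fell and Sox9 rose with thapsigargin, the oligodendrocyte markers Olig2 rose and Cnp fell, and the neuron markers Gad1 rose and Stmn2 fell, while 0 of 8 markers of vessels and fibroblasts were called. The part of these cells in the histone values was not tested.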

How the data were processed

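Poly-A RNA was sequenced from 12 samples, 3 groups of 4, grouped and numbered by their titles. Per the submitters' processing notes, the tools included STAR 2.7.2b, featureCounts 1.6.4, cutadapt 1.17 and bcl2fastq 2.20.0.422, and the build was GRCm39. Options for strand and for reads with several matches: not given in the sources used here. Deposited by the authors were expected counts per gene, not whole for 14.2% to 15.9% of genes in each library, and exon lengths. These were rounded to whole numbers and tested with edgeR 4.0.16 (R 4.3.3, limma 3.58.1): robust quasi-likelihood fit, TMM, filterByExpr with a minimum of 10 counts, 1 mean per group over 12 libraries, Benjamini-Hochberg adjustment per contrast, calls at 0.05. CPM used unrounded counts and the normalised library sizes; standard errors were derived from the test. The script was tested on simulated data. No molecular identifiers are described, so precision covers counting and sample spread only.

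The members, the gene lists and the rule for named genes (members called in any contrast, the 6 highest per length, near copies, those at the count limit, 3 genes per list by p and a fixed set) were chosen with earlier results of these data known. Same-numbered libraries deviated together from their group means (r of 0.159 to 0.836, every pair above 0.1), with 0.814 to 0.836 for replicate 4 and 0.159 to 0.392 for 1 to 3. Differently numbered libraries among 1 to 3 gave 0.238 to 0.412, so no pairing beyond replicate 4 was seen. The group means include replicate 4, which shifts replicates 1 to 3 the same way. A weak pairing among 1 to 3 could therefore be missed. The block was an alternative beside RLE and upper quartile scaling, DESeq2 1.42.0, other filters, 2-group fits, rounding down, left-out libraries and an exon length trend. No 2 replicates of a group were alike within counting noise, but replicate 4 stood much further off than the others. Chi-square per degree of freedom was 1.66 to 18.5 between replicates 1 to 3 of a group and 36.9 to 44.8 against replicate 4. Python 3 tables and figures used the same results. Sequences are RefSeq (GRCm38.p6) and GENCODE M21 (GRCm38), and coordinates of genes are GRCm39.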

Additional observations from a re-analysis of the deposited data

Results flagged for a closer look

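In each group of 4 libraries, the highest or lowest level was set against Dixon's 95% critical value for the gap to the next library over the range, for 50 members and 6 sums, 168 groups in all. Chance flags about 1 group in 20. The test flagged 26, and 24 of them were replicate 4 as the highest library. H1f2 was flagged in all groups, with 154.6 CPM with thapsigargin, 116.1 in calcium-free medium and 133.1 in control. The H1 sum was too, with 181.1, 128.1 and 154.2 CPM, and so was H2bc27, with 2.99, 1.55 and 1.88 CPM. Replicate 4 was flagged with thapsigargin for H1f4 (10.1 CPM), H2ac25 (8.67), H2bc12 (2.94), H2bc15 (2.34), H2bc22 (2.24) and the sum of all members (385.2). In calcium-free medium it was flagged for H4c12 (1.14 CPM) and H4c3 (0.513). In control it was flagged for H1f3 (8.18 CPM), H1f4 (9.48), H2ac25 (7.79), H2bc21 (18.1), H3c6 (0.572), H3c11 (0.625) and H4c12 (1.89). The other 2 were control replicate 1 for H2ac7 (0.803 CPM, highest) and control replicate 3 for the H2A sum (19.5 CPM, lowest).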

How the results depend on the processing

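The direction of every median in the 3 comparisons was kept under all settings, except that the small thapsigargin median changed sign. That median (0.07 against control) was -0.083 over the 15 members with at least 1200 counts, 0.24 with an exon length trend removed, and -0.057 to 0.20 with 1 library left out. Of members lower with thapsigargin than in control (1), RLE scaling, no filter, DESeq2 and a fit of only the 2 groups gave 0, upper quartile scaling gave 2, and left-out libraries gave 0 to 2. Of members higher (0), DESeq2 gave 1, the 2-group fit 3, and left-out libraries 0 to 1. With the replicate number as a block the counts were 6 higher and 3 lower, and without replicate 4 in any group 6 higher.

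Of members lower in calcium-free medium than in control (11), the 2-group fit gave 7, the replicate block 29, the setting without replicate 4 gave 27, the members with at least 1200 counts 4, and left-out libraries 6 to 14. The median (-0.53) ran from -0.69 to -0.43 with 1 library left out. Between thapsigargin and calcium-free medium, the 26 higher members became 6 among those with at least 1200 counts and 16 to 35 with 1 library left out, the median of 0.66 became 0.48 and 0.55 to 0.80, and the block called 1 member lower. The causes were not tested. Low counts limit the members under 1 CPM.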
